A study of Saccharomyces cerevisiae with 3 samples.

Results

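Large-subunit ribosome assembly factors are the proteins that fold, trim and carry the precursor of the 60S ribosomal subunit. Pre-ribosomal RNA is made by RNA polymerase I in the nucleolus, where helicases, scaffold proteins and RNA-binding proteins build the first pre-60S particles. The particles then pass through the nucleoplasm, where AAA-type ATPases and GTPases remodel them, and reach the cytoplasm, where the last factors leave. In budding yeast the genes for these factors, often called the Ribi regulon, are expressed in growing cells and are turned down when nutrients run out.

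The 45 genes were chosen by name, from the platform annotation of the array, and all 45 were measured, each by a single probe set, among 5498 tested probe sets for 5449 genes of Saccharomyces cerevisiae. They were sorted by where the protein works: 33 act on nucleolar particles, 6 join in the nucleolus and travel further with the particle, and 6 act late, in the nucleoplasm, during export or in the cytoplasm. This sorting and the lists of related genes used below rest on textbook roles. The genes and lists were chosen with earlier results of these data known. A set of very long genes was added after the value of MDN1 was seen.

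Haploid cells were taken in stationary phase from cultures in synthetic medium kept at 30 °C, and 6 µg of total RNA was labelled for each Affymetrix array. There were 2 arrays labelled RPA12 deletion (genotype RPA12 delta) and 1 array labelled wild type. All 3 carry the background BY4741, mating type a, with his3, leu2, met15 and ura3 deletions. The wild-type array's growth protocol names the RPA12 mutant, but its genotype and description read wild type, and those were followed. RPA12 encodes the RNA polymerase I subunit that takes part in RNA cleavage and termination. Values are log2 RMA probe-set values, so a difference of 1 is a 2-fold difference.

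The arrays did not match their labels in every gene. RPA12 itself was higher where it is labelled absent, at 5.74 and 5.79 against 3.60 in wild type. The place of its probes in the gene was not analysed here, and probes in a stretch that was not deleted would say nothing of the genotype. MET17, the same gene as MET15, read 9.43 and 9.36 in the deletion group, while its wild-type value of 1.56 was not above background. HIS3, labelled his3Δ 1 on all 3, read 9.27 and 9.30 against 6.73, above background throughout. The place of the HIS3 probes was not analysed either, so signal above background does not by itself contradict that label. LEU2 and URA3 differed by -0.16 and 0.00. Of 5 α-specific genes 4 rose by the rule of the next paragraph (80.0%, against 23.8% of all tested probe sets), with a median difference of 4.74. The α-pheromone gene MF(ALPHA)1 read 8.94 and 8.80 against 1.75, also not above background. HMLALPHA1 read 7.08 and 7.05 against 1.13, again not above background, and STE3 read 6.89 and 6.81 against 2.11. MF(ALPHA)2 and SAG1 differed by 1.56 and 0.80, and SAG1 was the one that did not pass. The 8 a-specific genes held 2 rises and 2 falls by that rule, against 23.8% and 10.2% of all tested probe sets (median difference 0.07). With 8 genes, nothing is read from these shares. HMRA1, whose values of 1.25 and 1.09 in the deletion group were not above background, read 7.41 in wild type, and MFA2 was the other that fell, while BAR1 and ASG7 rose. MET17, HMRA1 and most of the α-specific genes thus differed between arrays labelled with the same background. Whether the arrays hold the same strain was not tested. In all results below, a strain difference cannot be told apart from the RPA12 label, and "deletion arrays" means the arrays so labelled. The 36 poly-A spike-in probe sets were all lower on the deletion arrays, with a median difference of -3.81. None of 27 hybridization controls was higher there (median difference -1.48), so array processing and genotype cannot be told apart. Of 24 control probe sets for ribosomal RNA, 1 was higher on the deletion arrays, and their median difference was -1.25. In 7 yeast genes with control probe sets at both ends, the signal at the 3′ end exceeded that at the 5′ end by a median of 2.26 and 2.35 on the deletion arrays and 2.60 on the wild-type array. That gap was smaller on the wild-type array than on both deletion arrays in 5 of the 7 genes and larger in 2.

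Most of the assembly factors were higher on the deletion arrays. Of the 45, 33 rose, 1 fell and 11 did neither, where "rose" and "fell" mean a limma adjusted p under 0.05 together with a difference of at least 2-fold. Among all tested probe sets 23.8% rose and 10.2% fell by the same rule. The median difference of the 45 was 1.28, against 0.19 for all tested probe sets, and 42 of the 45 lay above that overall median. Both deletion arrays read higher than the wild-type array for 43 genes. SPB4 was equal on all 3 arrays, and MDN1 was lower on both deletion arrays. The 2 deletion arrays differed from each other by at most 0.19, in NSA1. The 34 differences that passed exceed that spread by construction, since the rule asks for at least 2-fold. No such spread can be given for wild type, which has a single array.

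**Figure D1:**
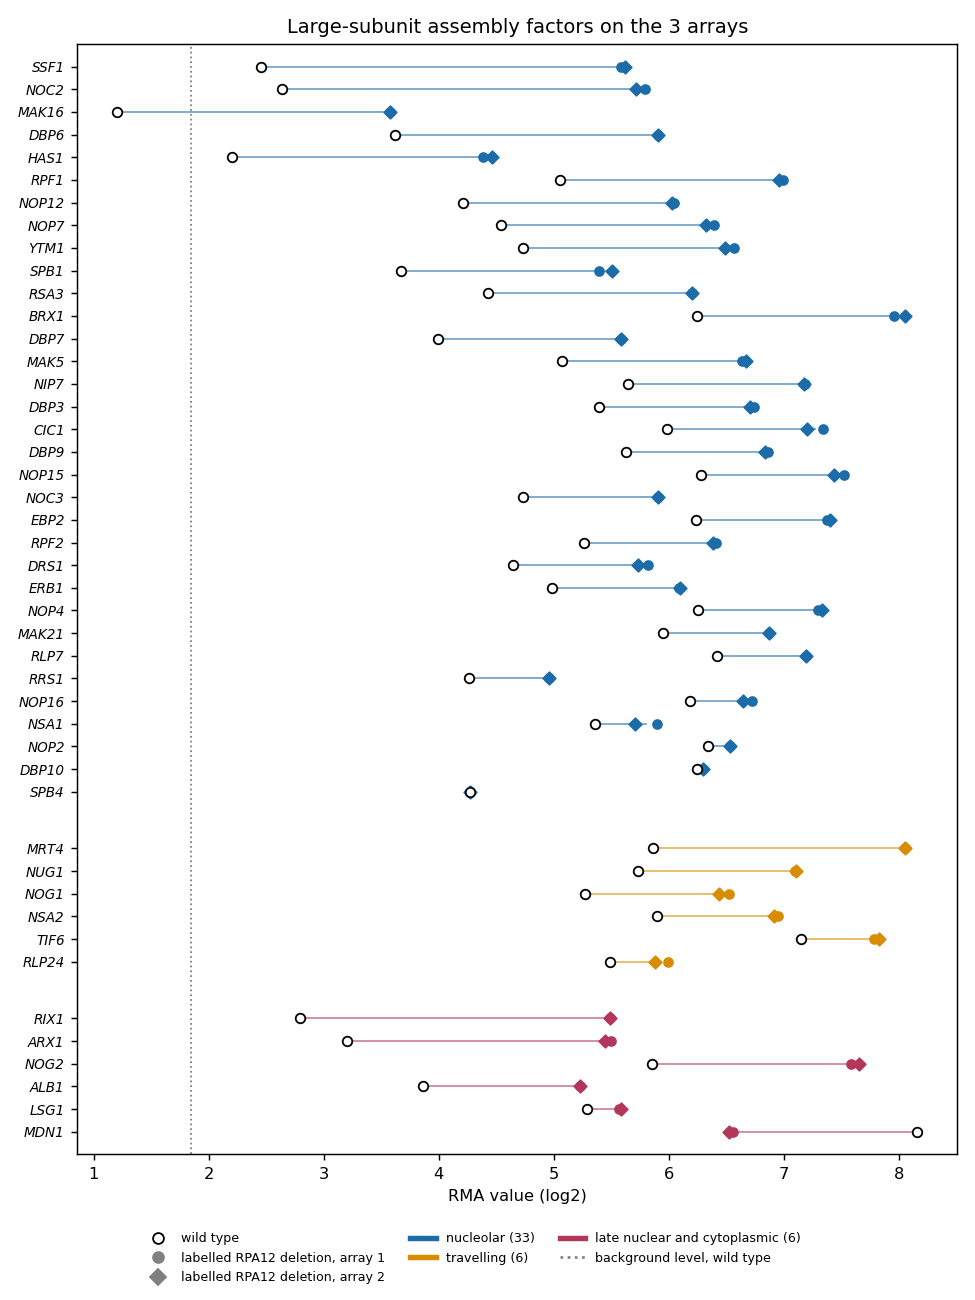
Log2 RMA value (x axis) of each of the 45 assembly factors (rows) on the wild-type array (open circles) and on the 2 deletion arrays (filled circles and diamonds), with genes grouped by stage and sorted by difference within a stage. Lines join the wild-type value to the mean of the 2 deletion arrays, and the dotted line is the wild-type background level of 1.84. MDN1 is the only gene with its wild-type circle to the right, and MAK16 the only one with its wild-type circle left of the dotted line.

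The limma adjusted p of the 33 that rose ran from 9.15e-05 to 0.0365. The size of p carries little information here. In 14 of the 45 genes the 2 deletion arrays held the same value to every deposited digit, as did 44.2% of all tested probe sets. For those genes p rests on the spread borrowed from other probe sets, and that spread is very small. The limma standard error was 0.000142 in each tied gene, such as DBP6, and 0.00915 in ERB1, the smallest among the untied of the 45. The low end of the p range belongs to tied genes. By limma's adjusted p alone, 40 of the 45 were higher, against 50.4% of all tested probe sets, and 1 was lower, against 29.7%. By the 2-fold rule alone the counts were 33 and 1, against 24.4% and 11.0% of all. Fewer cells transcribing a gene and less RNA per cell cannot be told apart in such bulk RNA.

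The scaling of the arrays moves all of these differences. After the 3 arrays were quantile-normalized again, the median of all tested probe sets moved by -0.26 and 25 of the 45 rose, against 16.8% of all, and 1 fell, against 15.2%. After each array was centred on its own median, the shift was -0.25, 23 rose, against 18.8%, and 1 fell, against 14.8%. Under each of these scalings 42 of the 45 still lay above the median of all probe sets, and the median of the 45 stood 1.14 and 1.09 above it, against 1.09 as deposited.

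**Figure D2:**
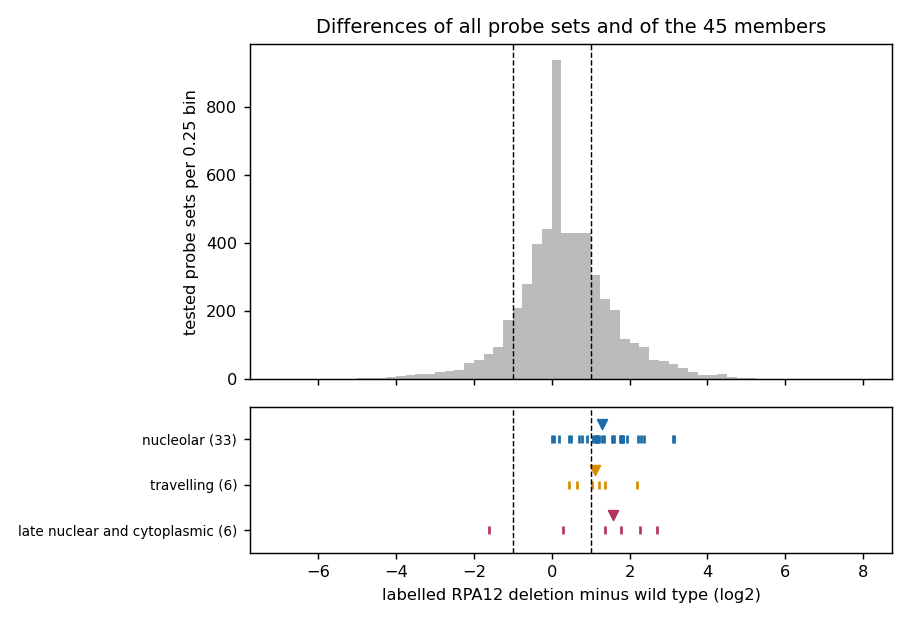
Top, number of tested probe sets (y axis) per bin of the difference between the arrays labelled RPA12 deletion and the wild-type array (x axis, log2). Bottom, the 45 assembly factors as ticks by stage, with a triangle at each stage's median (1.28, 1.12 and 1.57), and dashed lines at 2-fold. All but 3 of the ticks lie to the right of the overall median of 0.19.

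The nucleolar factors, which work where RNA polymerase I transcribes, were set beside the late nuclear and cytoplasmic ones. Of all tested probe sets 23.8% rose and 10.2% fell, and the median difference was 0.19. Among 33 nucleolar genes there were 25 rises and no fall, and differences ran from 0.00 to 3.15 around a median of 1.28. Among 6 travelling genes there were 4 rises and no fall (median 1.12). Among 6 late genes there were 4 rises and 1 fall, and differences ran from -1.62 to 2.70 around a median of 1.57. The nucleolar median minus the late median was -0.28. It was -0.087 (nucleolar minus late) after quantile normalization again and -0.0023 when the travelling genes were counted as late, and -0.51 without MDN1 and SSF1, genes that are treated below with reservations. Genes are not replicates, and no test was made between stages.

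The DEAD-box RNA helicases, which unwind and remodel pre-ribosomal RNA, had 7 rises among 9, against 23.8% of all tested probe sets. DBP6, part of an early complex around the protein Urb1, read 5.91 on both deletion arrays and 3.62 on the wild-type array, 4.87-fold higher. HAS1, which acts in both subunit pathways and helps release snoRNAs, read 4.39 and 4.46 against 2.20, 4.66-fold higher. DBP7 and MAK5 followed, 3.02-fold and 2.99-fold higher. DBP3 (2.51-fold), DBP9 (2.34-fold) and DRS1 (2.19-fold) were closer to the 2-fold line. The other helicases were near equal. SPB4 read 4.27 on all 3 arrays and was among 434 tested probe sets with equal values throughout, and DBP10 read 6.30 on both deletion arrays and 6.25 on the wild-type array. DBP10 turned to -0.10 after quantile normalization again and -0.20 after median centring, and SPB4 to -0.67 and -0.25.

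The Noc proteins are long helical-repeat proteins that work in pairs, Noc2 with Mak21 (Noc1) on early particles and with Noc3 on later nucleolar ones. NOC2 read 5.79 and 5.71 on the deletion arrays and 2.64 on the wild-type array, 8.65-fold higher (limma adjusted p = 0.0087). Its partners differed less. NOC3 read 5.91 on both deletion arrays against 4.74, 2.25-fold higher. MAK21 read 6.87 on both against 5.95, a difference of 0.92, just under the 2-fold line.

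The A3 factors are needed to remove the first internal spacer of the pre-ribosomal RNA. Of these 6 genes 5 rose, against 23.8% of all tested probe sets. Nop7, Erb1 and Ytm1 form a stable trimer. NOP7 read 6.39 and 6.33 against 4.54, 3.54-fold higher. YTM1 read 6.57 and 6.49 against 4.73, 3.48-fold higher. ERB1 read 6.09 and 6.10 against 4.98, 2.16-fold higher, so all 3 genes of the trimer rose, ERB1 least. NOP15 and CIC1 rose 2.30-fold and 2.44-fold. RLP7, which resembles ribosomal protein L7, read 7.19 on both deletion arrays against 6.42, a difference of 0.77.

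Brix-domain proteins bind RNA as pairs with partner proteins, and this group held the largest difference of the 45. SSF1 read 5.59 and 5.62 on the deletion arrays and 2.46 on the wild-type array, 8.87-fold higher (limma adjusted p = 0.0035). Its near-identical copy SSF2, which is not among the 45, read 4.85 on both deletion arrays and 3.36 on the wild-type array, 2.80-fold higher. The probe sequences were not analysed here, so each value may hold signal of both copies. RPF1 averaged 6.98 ± 0.027 (SD, n = 2) against 5.06, 3.79-fold higher, and BRX1 read 7.96 and 8.05 against 6.24, 3.39-fold higher. EBP2, a partner of Brx1, rose 2.22-fold. MAK16, the partner of Rpf1, read 3.57 on both deletion arrays and 1.20 on the wild-type array, which is not above background, so it was at least 3.31-fold higher. NSA1, of the same module, read 5.90 and 5.71 against 5.36 and did not pass (limma adjusted p = 0.167). RRP1, an outside member of that module, read 6.04 and 6.10 against 2.80, 9.62-fold higher.

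The 5S ribonucleoprotein is put into the particle by Rpf2 and Rrs1 together with ribosomal proteins L5 and L11. RPF2 read 6.41 and 6.38 against 5.26, 2.20-fold higher. RRS1 read 4.96 on both deletion arrays against 4.26, a difference of 0.70 and under 2-fold. SYO1, which carries L5 and L11 to the nucleus, rose by a difference of 1.71, while RPL5, RPL11A and RPL11B differed by 0.34, 0.41 and 0.69. Of these 6 genes 2 rose (33.3%), against 23.8% of all tested probe sets, and their median difference was 0.69. With 6 genes, nothing is read from this share.

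Among the RNA-modifying nucleolar factors, SPB1, a methyltransferase of the peptidyl transferase region, read 5.39 and 5.51 against 3.67, 3.43-fold higher. NIP7, a small RNA-binding protein, read 7.19 and 7.17 against 5.64, 2.91-fold higher. NOP2, a cytosine methyltransferase that binds Nip7, read 6.54 on both deletion arrays against 6.34, a difference of 0.20 that became -0.054 after median centring. Of the 2 methyltransferases only SPB1 passed the 2-fold line. Of the 5 remaining nucleolar genes 4 rose, against 23.8% of all tested probe sets. NOP12, an RNA-binding protein needed for pre-ribosomal RNA folding, rose 3.54-fold, and RSA3, of the complex that holds Dbp6, 3.42-fold. NOP4, an RNA-binding protein of early particles, rose 2.08-fold, and EBP2 is given above. NOP16 read 6.73 and 6.65 against 6.19 and did not pass (limma adjusted p = 0.0556).

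The travelling factors enter nucleolar particles and leave them later. MRT4, which holds the place of the stalk protein P0 until it is exchanged, read 8.05 on both deletion arrays and 5.87 on the wild-type array, 4.55-fold higher. The GTPases NUG1 and NOG1 rose 2.58-fold and 2.31-fold. NSA2, which is bound next to Nog1 on the particle, rose 2.05-fold and was the gene closest to the 2-fold line among those that rose. TIF6, which keeps the subunits from joining, read 7.78 and 7.83 against 7.15, a difference of 0.66. RLP24, which holds the place of ribosomal protein L24, read 5.99 and 5.88 against 5.49 and did not pass (limma adjusted p = 0.0952). The genes of the placeholders Mrt4 and Rlp24 thus had differences of 2.18 and 0.45, and no test was made between genes.

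Late nuclear factors held both a large rise and the sole fall. RIX1, core of the Rix1 complex that prepares nucleoplasmic particles for the ATPase Rea1, read 5.49 on both deletion arrays and 2.79 on the wild-type array, 6.48-fold higher. IPI1 and IPI3, the other proteins of that complex, rose as well, with differences of 1.96 and 2.90. RSA4, the protein that the ATPase pulls off, rose by a difference of 2.34. NOG2, a GTPase whose release lets the particle be exported, read 7.59 and 7.65 against 5.85, 3.41-fold higher.

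MDN1, also named REA1, encodes the ATPase itself, a dynein-like protein that is among the largest in yeast. It read 6.56 and 6.52 on the deletion arrays and 8.16 on the wild-type array, 3.08-fold lower (limma adjusted p = 0.0083). Its position among all tested differences, ranked from the lowest, was at percentile 5.37, while RIX1, IPI1 and IPI3 of the complex it works with were at percentiles 96.0, 91.0 and 96.7. The genes on either side of it on the chromosome were not lower, with SEN2 differing by 0.36 and REX3 by 1.36. Because MDN1 is an exceptionally long gene, 6 other very long yeast genes were looked up after its value was seen. IRA2 differed by -1.61, VPS13 by -1.64, IRA1 by -1.18 and TOM1 by -1.04. These 4 of the 6 fell, against 10.2% of all tested probe sets. TRA1 and DYN1 differed by -0.38 and -0.28, each under 2-fold. Whether gene length, or the 3′ to 5′ gaps given above, has a part in the value of MDN1 was not tested.

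The export and cytoplasmic genes numbered 3. ARX1, an export factor bound at the tunnel exit, read 5.50 and 5.45 against 3.21, 4.82-fold higher. ALB1, its binding partner, read 5.23 on both deletion arrays against 3.87, 2.57-fold higher, and its difference was 0.78, under 2-fold, after quantile normalization again. LSG1, the cytoplasmic GTPase that releases the export adaptor Nmd3, read 5.57 and 5.59 against 5.29, a difference of 0.29. NMD3 itself rose by a difference of 1.69. Of the 3, only LSG1, whose protein works in the cytoplasm, stayed under 2-fold as deposited.

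Other genes of the pathway gave a like picture. Of 17 measured late pre-60S factors outside the 45, 14 rose and none fell, against 23.8% and 10.2% of all tested probe sets. Their median difference was 1.55. The largest differences were in SDO1, which works with a GTPase to release Tif6, at 3.52, IPI3 at 2.90, RSA4 at 2.34 and REH1, a cytoplasmic factor, at 2.20. Of 13 nucleolar ones outside the 45, there were 6 rises and no fall, and the median was 1.00. Here RRP1 at 3.27 and PWP1, a WD-repeat protein, at 2.90 led, followed by NOP8 at 1.71 and SSF2 at 1.48. The nucleolar and late genes of the 45 were also pooled with these lists, without the travelling genes. Of 46 nucleolar genes 31 rose and none fell, and of 23 late genes 18 rose and 1 fell. Their medians were 1.25 and 1.55. Among 5 chaperones that guard newly made large-subunit proteins, SQT1 (1.75), SYO1 (1.71) and RRB1 (1.12) rose, and ACL4 and BCP1 differed by 0.23 and -0.89.

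Small-subunit assembly and the polymerase showed shares of the same order. The 46 measured small-subunit processome genes held 30 rises and no fall (median difference 1.43), led by BFR2 at 4.02, RCL1 at 3.65, NOP14 at 3.44 and UTP15 at 3.26. Late pre-40S factors had 7 rises among 12 and a median of 1.29, led by RRP12 at 2.96. Of 14 RNA polymerase I subunits 11 rose, with a median of 1.40, RPA12 among them. The shares were lower in the ribosomal protein lists: of 76 genes in the large-subunit list 21 rose (27.6%), close to the 23.8% of all probe sets, with a median of 0.80. For small-subunit ribosomal proteins the figures were 12 of 53 (22.6%) and a median of 0.74. Even so, 73 of the 76 and 49 of the 53 lay above the overall median difference of 0.19. The large-subunit list also includes RPP1, which is not a ribosomal protein gene and did not pass (difference 0.92). Ribosomal protein genes are often duplicated, and their copies may share signal.

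**Figure D3:**
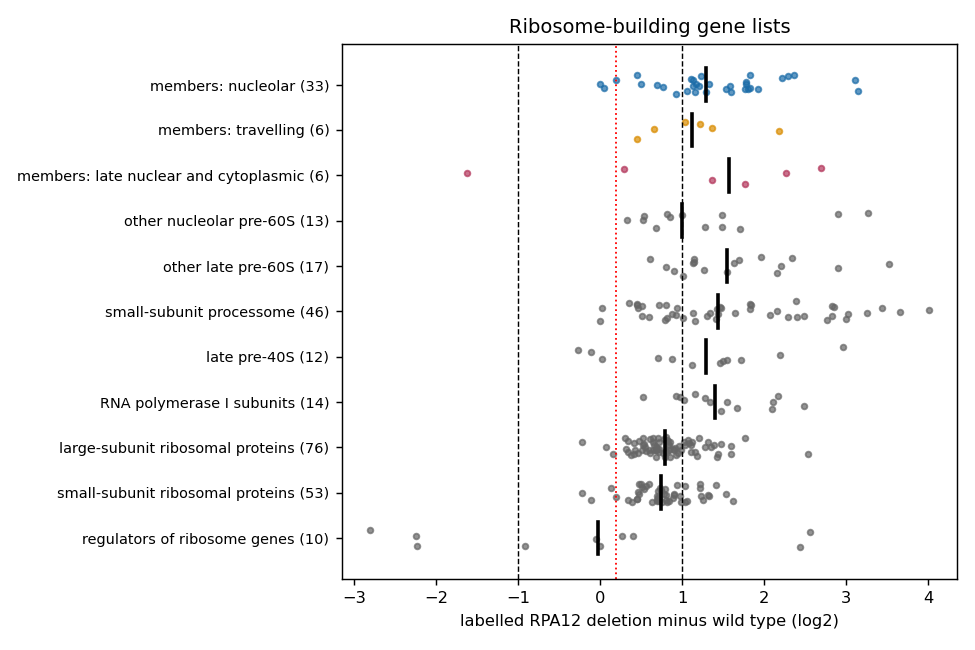
Difference between the arrays labelled RPA12 deletion and the wild-type array (x axis, log2) for each gene of the 3 member stages and of 8 related lists (rows, number of measured genes in brackets). Points are genes, spread vertically for legibility, black bars are medians, dashed lines mark 2-fold and the red dotted line is the median of all tested probe sets, 0.19. The medians of the assembly lists lie between 1.00 and 1.57, those of the ribosomal protein lists at 0.80 and 0.74, and that of the regulators at -0.02.

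Single regulators of these genes are given for their values. Stb3, Dot6 and Tod6 are repressors of the Ribi regulon, Crf1 represses ribosomal protein genes, and Ifh1 activates them with Fhl1. STB3 read 4.72 and 4.87 on the deletion arrays and 7.03 on the wild-type array and fell, and CRF1 read 3.37 and 3.21 against 6.10 and fell. TOD6 rose, from 3.41 to 5.85 on both deletion arrays, whereas DOT6 differed by -0.92. IFH1 read 5.47 and 5.45 against 2.90 and rose. SCH9, a kinase downstream of TORC1 that restrains these repressors, fell, from 6.40 to 4.27 and 4.03. SFP1, an activator of the regulon, read 5.59 on both deletion arrays and 5.64 on the wild-type array. In all, 2 of the 10 regulators rose and 3 fell, against 23.8% and 10.2% of all probe sets, and the median difference was -0.02. With 10 genes, nothing is read from these shares.

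Some assembly genes lie beside other ribosome genes on the chromosome. RIX1 is next to UTP9, which rose by a difference of 2.83, and NSA2 is next to LCP5, which rose by 2.77, both genes of the small-subunit processome. RSA3 lies next to UTP13 (0.94) and NOP12 next to RPS15 (0.55), neither of which passed the 2-fold line. SSF1 lies next to RRP3, a helicase of small-subunit processing, which read 6.73 and 6.77 against 3.10. The 80 measured flanking genes that are in none of the ribosome lists, RRP3 included, had 22 rises (27.5%), near the 23.8% of all probe sets, 8 falls, against 10.2%, and a median of 0.41. The lists do not hold every gene of ribosome making, so these 80 are not a set free of such genes.

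**Figure D4:**
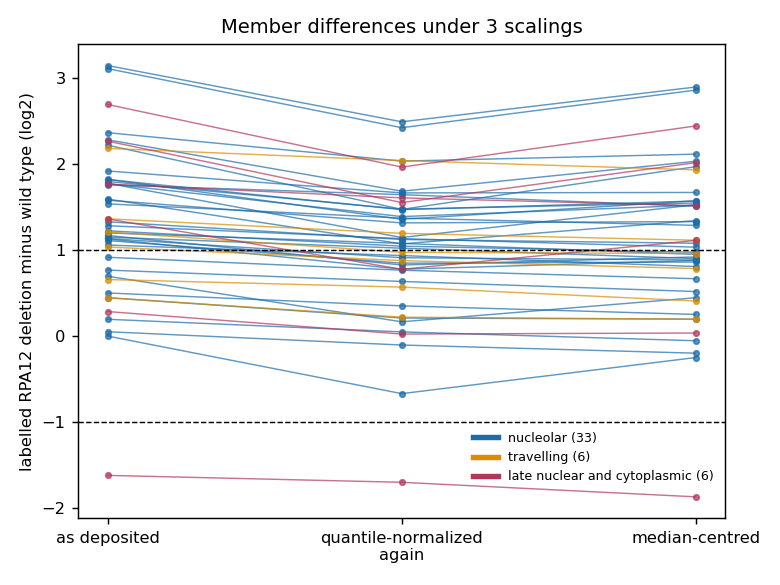
Difference between the arrays labelled RPA12 deletion and the wild-type array (y axis, log2) of each of the 45 genes (lines, coloured by stage) with the values as deposited, after quantile normalization again and after median centring of each array. Dashed lines mark 2-fold. Genes at or above the upper line number 33, 25 and 23, and MDN1 stays below the lower line under each scaling.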

How the data were processed

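The authors deposited log2 probe-set values made with RMA in Affymetrix Expression Console, per the submitters' processing notes. No version, and no list of arrays that shared a run, was found in these sources. RMA forces the probe intensities of a run onto a single distribution, so a change shared by most transcripts would not be seen. The values were used as deposited. Of 10928 probe sets, 5498 have a single S. cerevisiae symbol in the platform annotation and were tested. The 1746 named probe sets of another yeast set the background level, their 95% point, at 1.42 on both deletion arrays and 1.84 on the wild-type array. Where a value does not exceed its array's level, only a bound is known, and the fold, written "at least", was taken against that level.

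Each difference is the deletion group's mean (2 arrays) less the wild-type value. Two-sided tests used lmFit with eBayes from limma 3.58.1 under R 4.3.3, Benjamini-Hochberg adjusted over all 5498, after a check on simulated data. With 1 residual degree of freedom, the lone wild-type array is assumed to vary like the others, and as no label names separate cultures, p-values may measure technical spread only. The number of arrays limits precision. The RefSeq table of assembly R64 served for names and neighbours. All 45 genes could be named, and of other lists the up to 4 with the largest differences, all of short lists, and label checks. NMD3, IPI1, STB3, DOT6, SFP1, chromosomal neighbours and the very long genes were named outside this rule, with values known. The members and lists were chosen with earlier results of these data known. Alternatives were another scaling, a filter on dim probe sets, a trend in limma, other call rules, leaving out each deletion array, and other stage groups.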

Additional observations from a re-analysis of the deposited data

How the results depend on the processing

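The counts of 33 rises and 1 fall were the same with an intensity trend, with the 2-fold rule alone, and without replicate 1 or 2 of the deletion arrays, where no test is possible and the 2-fold rule alone was used. The dim filter and the mean over a gene's probe sets could not change a member's difference, since each has a single probe set that is above background on at least 1 array, and they say nothing about stability. The counts were 40 and 1 by limma's adjusted p alone, and 32 rises without MDN1 and SSF1, an alternative chosen after seeing the data. Quantile normalization again gave 25 rises, and took DRS1, NOC3, ERB1, RPF2, NOP4, NOG1, NSA2 and ALB1 under 2-fold. Median centring gave 23, taking the same genes except ALB1, and DBP9, NOP15 and EBP2. MDN1 fell under both scalings. The median differences of all, nucleolar, travelling and late genes were 1.07, 1.08, 0.93 and 1.17 after quantile normalization again and 1.03, 1.03, 0.87 and 1.32 after median centring. Without replicate 1 or 2 they ranged from 1.21 to 1.35, 1.21 to 1.35, 1.09 to 1.15, and 1.55 to 1.58. The late median was 1.29 with travelling genes counted as late and 1.77 without MDN1 and SSF1. The nucleolar minus late median, -0.28, was -0.087 after quantile normalization again, -0.0023 with travelling genes counted as late, -0.51 without MDN1 and SSF1, and -0.37 to -0.20 without replicate 1 or 2. DBP10 turned to -0.10 after quantile normalization again and -0.20 after median centring, and NOP2 to -0.054 after the latter. Both scalings lower the deletion arrays relative to the wild-type array by construction. No paired analysis was possible because wild type has a single array.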
